A study of Mus musculus with 6 samples.

Results

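Mouse mesenchymal stem cells given a vector for Sox9 were compared directly with the same cells given a vector for Pbx3. The comparison used 2 of the 6 samples of the series, with 2 sequencing libraries each, and asked how far a pair of transcription factors, each forced into the same cell line, left it in different states. A gene was a member of the comparison where its mean over Sox9 and Pbx3 cells reached 50 normalised counts, which held for 9898 of 23227 genes in exonic reads and for 8574 of 23231 in intronic reads. Sox9 cells, Pbx3 cells, Tead4 cells and vector cells are all Dicer WT cells of an immortalized monoclonal line (Dicer f/f, in which the Dicer gene is flanked by sites for recombination but intact), transfected with Sox9, Pbx3, Tead4 or an empty vector. They were grown without further treatment in medium with fetal bovine serum and harvested before confluence. Because the line is 1 clone, the values describe that clone. Neither the promoter of the vectors nor the time after transfection is stated in the sources used here. Besides mesenchymal stem cell, the labels use the word fibroblast for the line.

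SOX9 is the transcription factor that cartilage cells need to form. With its partners SOX5 and SOX6 it switches on the genes for type II and type XI collagen, aggrecan and link protein, which together build the cartilage matrix. PBX3 belongs to the PBX homeodomain proteins, which bind DNA together with HOX and MEIS proteins and take part in the patterning of limbs and the body axis. Mesenchymal stem cells can turn into cartilage, bone or fat cells in culture.

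The stretch of 250 bases before the annotated gene start is shown for the 4 genes furthest higher and the 2 genes furthest lower in Sox9 cells among called genes with a RefSeq window (GRCm38.p6), because their levels separated the 2 groups most. They are written 5′ to 3′ on the strand of the gene. Capitals mark a SOX-type motif (ACAATG or ACAAAG, either strand). A PBX-type motif (TGATTGA, either strand) was also searched. It had no match in these windows, so the 2 motifs did not overlap there.
Hapln1 (chr13:89540386-89540635, plus strand): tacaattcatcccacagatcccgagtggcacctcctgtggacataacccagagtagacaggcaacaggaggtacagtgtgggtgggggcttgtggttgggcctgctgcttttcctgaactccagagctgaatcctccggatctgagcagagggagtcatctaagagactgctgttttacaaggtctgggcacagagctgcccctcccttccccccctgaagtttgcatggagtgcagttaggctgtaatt
Lect1 (chr14:79662184-79662433, minus strand): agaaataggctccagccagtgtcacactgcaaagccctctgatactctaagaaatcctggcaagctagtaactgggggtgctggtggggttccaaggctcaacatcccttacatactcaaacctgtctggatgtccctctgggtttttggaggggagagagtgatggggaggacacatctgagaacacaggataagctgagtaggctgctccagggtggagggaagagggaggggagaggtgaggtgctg
Acan (chr7:79052976-79053225, plus strand): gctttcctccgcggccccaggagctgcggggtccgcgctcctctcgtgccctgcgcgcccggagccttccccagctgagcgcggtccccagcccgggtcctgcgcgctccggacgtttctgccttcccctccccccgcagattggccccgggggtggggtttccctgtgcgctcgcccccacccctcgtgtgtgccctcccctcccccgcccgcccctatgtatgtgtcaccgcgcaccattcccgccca
Chl1 (chr6:103510626-103510875, plus strand): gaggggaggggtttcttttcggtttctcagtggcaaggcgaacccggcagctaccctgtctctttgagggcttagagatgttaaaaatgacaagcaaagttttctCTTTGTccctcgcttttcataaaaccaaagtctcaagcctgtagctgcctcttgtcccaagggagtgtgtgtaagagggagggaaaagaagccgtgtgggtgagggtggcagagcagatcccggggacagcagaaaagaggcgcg
Cap2 (chr13:46501653-46501902, plus strand): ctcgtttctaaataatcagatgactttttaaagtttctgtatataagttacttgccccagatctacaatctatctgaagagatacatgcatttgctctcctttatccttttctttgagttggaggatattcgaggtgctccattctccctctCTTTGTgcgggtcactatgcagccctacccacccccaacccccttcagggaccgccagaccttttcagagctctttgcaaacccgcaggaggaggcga
Flrt2 (chr12:95691976-95692225, plus strand): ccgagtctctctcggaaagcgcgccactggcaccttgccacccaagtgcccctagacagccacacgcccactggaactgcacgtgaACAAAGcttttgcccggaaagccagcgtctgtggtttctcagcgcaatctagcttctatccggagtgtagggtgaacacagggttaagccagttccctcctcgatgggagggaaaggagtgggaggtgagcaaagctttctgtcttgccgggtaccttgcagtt

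Chl1, Cap2 and Flrt2 each held 1 SOX-type match in this window, and none of the 6 held a PBX-type match. Over all called genes with a window, the SOX-type letters were present in 10 of 47 genes higher in Sox9 cells (21.3%) and in 6 of 31 genes lower in Sox9 cells (19.4%). The share was 16.0% over the 8005 tested genes with a window and 25.5% over all 27025 windows of this length. PBX-type letters were present in 1 of 47 higher genes (2.13%), in 0 of 31 lower genes, in 1.75% of the tested genes and in 2.32% of all windows. These matches describe letters in the windows and are not binding sites.

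Exonic depth was 7767701 and 6130267 reads in the Sox9 libraries, 10831047 and 9374739 in the Pbx3 libraries, and 8580445 to 11011360 in the Tead4 and vector libraries. Intronic reads stem largely from RNA not yet spliced. They numbered 3720908 and 3156973 in Sox9 and 4602138 and 3524600 in Pbx3 cells. The 2 libraries of each group differed along genes that all 4 groups share. Across 9881 genes the exonic difference between the Sox9 libraries correlated with that between the vector libraries at r = 0.57, and the difference between the Pbx3 libraries at r = −0.81, so that Sox9 library 1 stood on the side of Pbx3 library 2. The genes share libraries, so this is a description. What the libraries of a group differ in was not tested, and nothing says that they came from separate cultures, so that each p-value reflects the spread of these libraries alone, which may be technical. Of 15 stromal surface markers, 12 reached the minimum, among them Cd44 at 2780 and 3191 normalised counts in Sox9 cells and 5022 and 2216 in Pbx3 cells. Thy1 was listed at 0 in every library. None of 8 haematopoietic, 5 endothelial, 6 epithelial and 6 neural markers reached the minimum in exonic reads. Ptprc, Cdh5, Epcam and Sox10 were listed at 0 in both groups, and of 5 muscle markers only Acta1 reached it. Levels are reads divided by the size factor of the library, on the scale of the Pbx3 table, and are not per length, so they compare samples and not genes.

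The delivered factors were read next. Pbx3 stood at 212 and 276 normalised counts in Sox9 cells, against 36740 and 27165 in Pbx3 cells, with 259 and 221 in vector cells. Its exonic log2 fold change was −7.02 ± 0.19 (limma adjusted p = 6.36e-06). In intronic reads Pbx3 had 1634 and 2072 normalised counts in Sox9 cells against 5109 and 4745 in Pbx3 cells, a log2 fold change of −1.42 ± 0.15 (limma adjusted p = 0.00195). The groups did not overlap in either kind of read, and the exonic gap was far wider than the intronic one. Exonic reads cannot tell the RNA of the vector from that of the cell's own gene.

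Sox9 had 215 and 223 normalised counts in Sox9 cells, against 64.1 and 90.4 in Pbx3 cells, 97.4 and 192 in Tead4 cells and 139 and 56.7 in vector cells. The Sox9 libraries lay above those of the other 3 groups. Its log2 fold change of 1.51 ± 0.46 over Pbx3 cells did not pass (limma adjusted p = 0.166, and 0.00551 with the term for library order described next), and its intronic mean was under 50. Sox9 RNA was thus 2.85-fold apart between the groups in exonic reads and Pbx3 RNA 130-fold, counted as fitted folds.

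Of the 9898 genes tested in exonic reads, 106 had a limma adjusted p under 0.05 (1.07%). Of these, 65 were higher (0.657%) and 41 lower (0.414%) in Sox9 cells, and 1680 genes had an unadjusted p under 0.05. By the size rule, 396 genes were at least 2-fold apart (4%), 271 higher (2.74%) and 125 lower (1.26%), and 93 of these 396 were among the called genes. Sox9 and Pbx3 libraries held separate ranges, with no overlap, for 45.6% of all tested genes, 22.3% higher and 23.3% lower. The median log2 fold change was −0.0072 over all tested genes, 1.78 over the genes called higher and −1.31 over those called lower. The calls rested on few libraries. They numbered 11 without Sox9 library 1, 18 without Sox9 library 2, 21 without Pbx3 library 1 and 70 without Pbx3 library 2. All 106 genes kept their sign in those of these 4 fits in which they reached the minimum. No sign can turn this way where the libraries of the 2 groups do not overlap, so this is no support. Few genes kept their call in each of the 4 fits, and many kept it in none. Those called throughout were Col2a1, Fabp4, Fhl1, Gpr126, Mecom, Mef2c, Pbx3, Plk2 and Slc38a1. With a term for the shared difference between libraries, whose order was taken from these data, limma called 1579 exonic genes, all 106 among them, and 78 of 110 named genes that were not called without it. A gene or list that missed the threshold below therefore often passed with that term, and list counts with it are given for some lists only. Other lists changed widely too, such as the fibrillar and basement membrane genes, with 15 of 33 called higher and 5 lower under it.

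**Figure D1:**
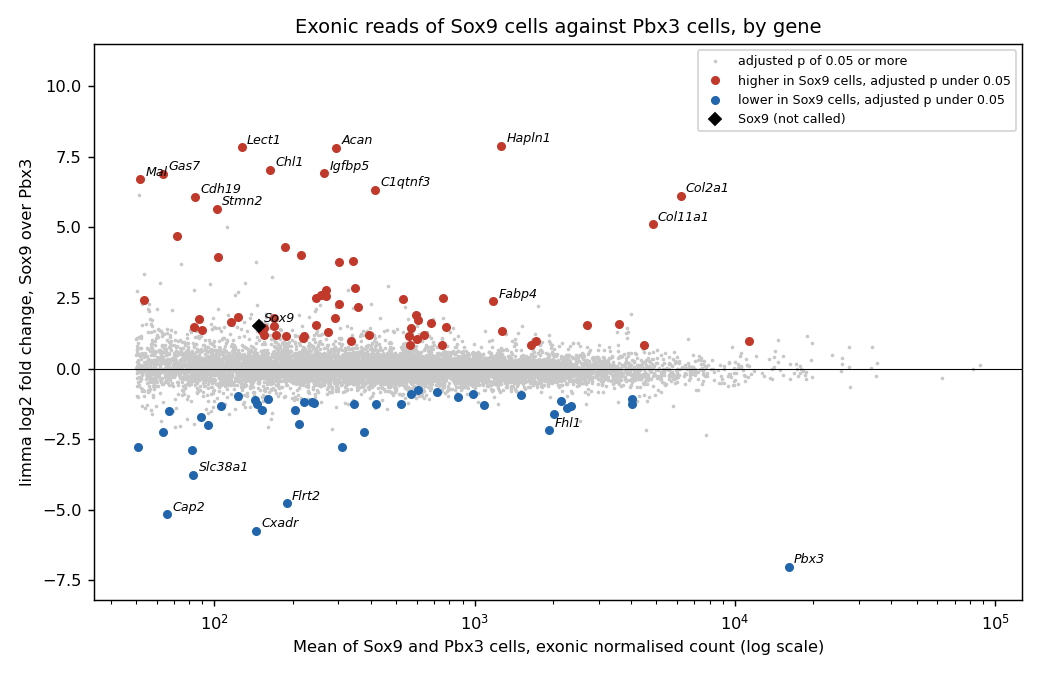
Each dot is 1 of 9898 genes, placed by its mean exonic normalised count in Sox9 and Pbx3 cells (log scale) and its limma log2 fold change of Sox9 over Pbx3 cells. Red dots are the 65 genes called higher and blue dots the 41 called lower in Sox9 cells, and the black diamond is Sox9 itself at 1.51, which was not called.

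Cartilage matrix genes stood furthest apart. Among the 18 tested members of a list of 33 SOX9 and cartilage genes, 9 rose in Sox9 cells, 0 fell, 15 had an unadjusted p under 0.05, and all 18 had the higher value in Sox9 cells. Their median log2 fold change was 1.96, against −0.0072 over all tested genes. Lect1 had no reads in Pbx3 cells, and its lower bound is still above this median, so setting it there could not move the median. The list was drawn up with earlier results of these data known, and a gene near 0 in 1 group passed the minimum through the other. In bulk RNA a larger number of cells of a kind and more RNA per cell cannot be told apart.

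Col2a1, the main collagen of cartilage, had 13901 and 10484 normalised counts in Sox9 cells, against 236 and 125 in Pbx3 cells and 509 and 390 in vector cells. All libraries of Sox9 cells lay above, and those of Pbx3 cells below, the vector libraries. Its log2 fold change was 6.13 ± 0.34 (limma adjusted p = 0.000612, and 0.000485 to 0.0287 with 1 library left out). Col11a1, the chain of type XI collagen that sits inside type II fibrils, had 11653 and 7052 against 146 and 463, with 232 and 126 in vector cells. It rose by 5.12 ± 0.54 (limma adjusted p = 0.0101, and 0.00191 to 0.138 with 1 library left out). Here the Pbx3 libraries overlapped the vector libraries. Col27a1, another fibrillar collagen of cartilage, rose by 2.18 ± 0.36, with 632 and 540 in Sox9 cells against 108 and 151 in Pbx3 cells (limma adjusted p = 0.0401). Col11a2 was also higher in value, at 119 and 63.9 against 19.8 and 21.6, short of the threshold (2.03 ± 0.53, limma adjusted p = 0.124). Col9a1, a collagen on the surface of the same fibrils, had 129 and 70.2 in Sox9 cells and 0 in both Pbx3 and both vector libraries, with a mean too low to be tested.

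Hapln1 encodes link protein, which fastens aggrecan to hyaluronan. It had 3128.5 and 1915 normalised counts in Sox9 cells against 8.48 and 10.3 in Pbx3 cells and 1.75 and 2.36 in vector cells, a log2 fold change of 7.89 ± 0.48 (limma adjusted p = 0.000612, and 0.00234 to 0.0746 with 1 library left out). Acan, the aggrecan core protein, had 757 and 415 in Sox9 cells. In Pbx3 cells Acan had 0 and 5.14, from 5 reads in all, so the ratio was 245 with a 95% counting interval of 105 to 758. Its log2 fold change of 7.82 ± 1.05 passed (limma adjusted p = 0.0214) and ran from 6.52 to 9.13 over the fits that left out 1 library, with an adjusted p of 0.0215 to 0.314. Lect1, the chondromodulin gene, an inhibitor of vessel growth in cartilage, had 369 and 140 against 0 and 0, which is at least 180-fold higher by a floor of 3 reads over the group (limma adjusted p = 0.0214, and 0.0474 to 0.382 with 1 library left out). All 3 genes were near or at 0 outside Sox9 cells, with 0 to 1 reads in the Tead4 cells. Prelp, a small leucine-rich protein of cartilage and basement membranes, rose by 4.31 ± 0.71, with 473 and 240 against 13.2 and 19.5 (limma adjusted p = 0.0394, and 0.0649 to 0.331 with 1 library left out). Vcan and Gpc1, both core proteins of proteoglycans, rose by 1.57 ± 0.19 and 1.54 ± 0.18 (limma adjusted p = 0.0152 for each). These 2 genes lie outside the lists and were named after their values were seen, as were Mef2c, Edil3, Faah, Wscd2, Slc16a3, Cryab, Apba1, Gpr126, Unc5c, Zfp521, Gcnt1, Gcnt4, Chst10, Eya1, Ptprk, Ghr, Zfp503 and Adamts3 below. Col11a2, Col9a1, Cd44 and Xylt1 are list members that were also picked out after their values were seen.

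The sulfation of cartilage proteoglycans needs its own enzymes. Papss2, which makes the sulfate donor, had 1070 and 797 in Sox9 cells against 202 and 304 in Pbx3 cells and rose by 1.89 ± 0.30 (limma adjusted p = 0.0383, and 0.0452 to 0.309 with 1 library left out). Chst11, a chondroitin sulfotransferase, had 321 and 278 against 134 and 147 and rose by 1.08 ± 0.18 (limma adjusted p = 0.0394, and 0.0665 to 0.314 with 1 library left out). Xylt1, which starts the glycosaminoglycan chain, stood at 141 and 114 against 58.4 and 41.1, short of the threshold (1.35 ± 0.35, limma adjusted p = 0.121). Further glycan enzymes outside that path, Gcnt1 at 2.30 ± 0.20, Gcnt4 at 2.42 ± 0.34 and Chst10 at 1.66 ± 0.24, were called higher (limma adjusted p = 0.00457, 0.0257 and 0.0257).

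Among transcription factors of the cartilage programme, Sox6 had 443 and 363 normalised counts in Sox9 cells, against 15.1 and 37.0 in Pbx3 cells and 16.6 and 9.45 in vector cells, and rose by 4.02 ± 0.56 (limma adjusted p = 0.0254, and 0.0330 to 0.259 with 1 library left out). Sox5, its close relative, had 102 and 71.7 against 17.9 and 33.9 and did not pass in exonic reads (1.76 ± 0.50, limma adjusted p = 0.147). In intronic reads Sox6 rose by 4.28 ± 0.49 (limma adjusted p = 0.00245) and Sox5 by 1.65 ± 0.24 (limma adjusted p = 0.00792, and up to 0.0828 with 1 library left out). Mef2c, a factor that drives the enlargement of cartilage cells in growth plates, had 828 and 454 against 36.8 and 49.3, with 97.9 and 73.2 in vector cells, and rose by 3.82 ± 0.32 (limma adjusted p = 0.00389, and 0.00745 to 0.0347 with 1 library left out). Zfp521, a zinc finger protein of the growth plate, rose by 2.51 ± 0.30, Eya1 by 1.33 ± 0.22 and the homeobox gene Prrx2 by 1.03 ± 0.17 (limma adjusted p = 0.0152, 0.0415 and 0.0394). Receptors of the growth plate were higher in value without passing. Fgfr3 had 1170 and 493 against 78.2 and 125 (2.93 ± 0.61, limma adjusted p = 0.0752), and Pth1r had 312 and 204 against 70.7 and 127 (1.40 ± 0.61, limma adjusted p = 0.295).

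**Figure D2:**
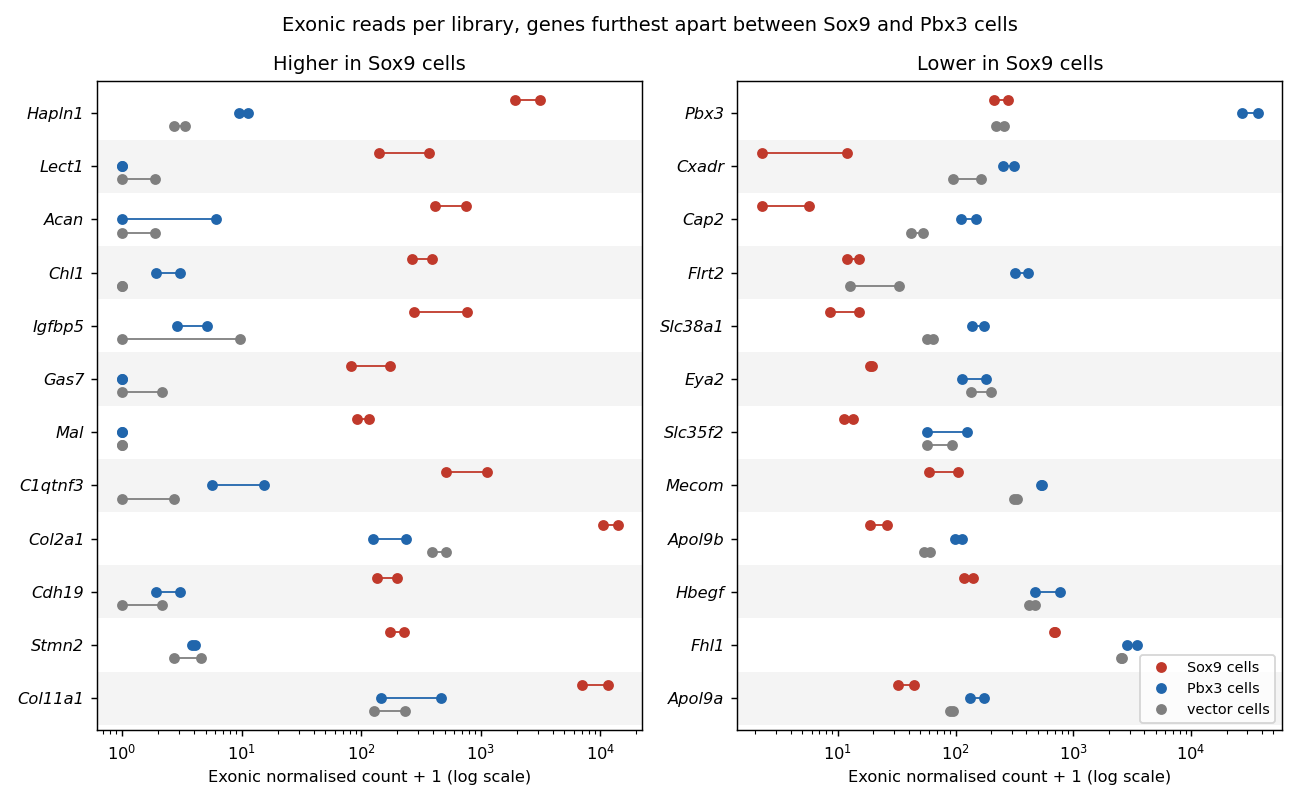
Each dot is 1 library, at its exonic normalised count plus 1 on a log axis, for the 12 genes furthest higher (left) and the 12 furthest lower (right) in Sox9 cells among called genes. Sox9 libraries are red, Pbx3 libraries blue and vector libraries grey. Lect1, Gas7 and Mal lie at 0 reads in both Pbx3 libraries, and Flrt2 and Pbx3 are the lower genes at which Sox9 and vector libraries overlap.

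Other matrix genes moved less and in both directions. Of 33 tested fibrillar and basement membrane genes, 4 rose, 1 fell and 18 had an unadjusted p under 0.05. Lama4, a laminin chain of basement membranes, had 1635 and 956 in Sox9 cells against 244 and 199 in Pbx3 cells and rose by 2.50 ± 0.41 (limma adjusted p = 0.0401, and 0.0816 to 0.322 with 1 library left out). The basement membrane collagen Col4a5 rose by 1.46 ± 0.23, fibronectin (Fn1) by 0.98 ± 0.17 and Col5a1 by 0.85 ± 0.14 (limma adjusted p = 0.0383, 0.0490 and 0.0394), and each of these calls was lost whichever library was left out, with an adjusted p between 0.0523 and 0.294. Fbln2, an elastic fibre protein, had 1144 and 1558 in Sox9 cells, against 3777 and 2909 in Pbx3 cells and 1950 and 2311 in vector cells, and fell by 1.31 on the log2 scale (SE 0.19, limma adjusted p = 0.0289, and 0.0414 to 0.230 with 1 library left out). Its libraries lay below vector in Sox9 cells and above vector in Pbx3 cells. Of 24 tested proteases and inhibitors, 1 rose, Adamts12 at 1.29 ± 0.23 (limma adjusted p = 0.0496), and 8 had an unadjusted p under 0.05. Over all 9898 tested genes 0.657% were called higher and 1680 had such an unadjusted p. The log2 fold change of Adamts12 ran from 1.06 to 1.51 with 1 library left out. Its call was kept in 4 of 6 other fits with all Sox9 and Pbx3 libraries. In intronic reads 1 of 18 proteases and inhibitors rose and 1 fell.

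Of 8 tested insulin-like growth factor genes, 2 rose and all 8 had the higher value in Sox9 cells. Igfbp5, a binding protein for these factors, had 772 and 276 in Sox9 cells, against 1.88 and 4.11 in Pbx3 cells and 8.74 and 0 in vector cells. From 6 reads in Pbx3 cells the ratio was 186 (95% counting interval 85.0 to 508), and the log2 fold change of 6.91 ± 1.13 passed (limma adjusted p = 0.0394, and 0.0649 to 0.387 with 1 library left out). Igf2bp2, an RNA-binding protein, rose by 1.55 ± 0.26, with 361 and 370 against 106 and 144 (limma adjusted p = 0.0431, and 0.0536 to 0.304 with 1 library left out). Igf1 itself had 271 and 172 against 36.8 and 124, short of the threshold (1.66 ± 0.67, limma adjusted p = 0.271).

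Bone genes were higher in value in Sox9 cells, and whether they passed depended on the fit. Of 11 tested osteoblast genes, 6 were at least 2-fold higher, against 2.74% of all tested genes, and all 11 were higher in value, with a median log2 fold change of 1.17. Limma called 0 of them in exonic reads, where 4 had an unadjusted p under 0.05, and 8 of them, all higher, with the term for library order. Over all 9898 tested genes, 1680 had such an unadjusted p and 1579 were called with that term. Sp7, the osterix factor of bone cells, had 1163 and 611 in Sox9 cells, 130 and 261 in Pbx3 cells and 777 and 481 in vector cells (2.19 ± 0.50, limma adjusted p = 0.0930, and 1.05e-05 with that term). Alpl, alkaline phosphatase, had 8655 and 2905 against 1316 and 2591, with 6686 and 2250 in vector cells (1.44 ± 0.75, limma adjusted p = 0.366, and 0.000199 with that term). Sox9 and vector libraries overlapped for both genes. Pbx3 libraries lay below vector for Sp7 and overlapped vector for Alpl. Along the genes on which libraries differ, the list differed between the 2 libraries of a group by a median of 0.55 log2 units in Sox9 cells and 0.82 in Pbx3 cells, and the part of that difference in the result was not tested. Of 8 adipocyte genes, 1 rose. Fabp4, a fatty acid carrier, had 1965 and 1982 in Sox9 cells, 334 and 426 in Pbx3 cells and 1287 and 1212 in vector cells, a log2 fold change of 2.38 ± 0.15 (limma adjusted p = 0.000612, and 0.000989 to 0.0287 with 1 library left out). Sox9 libraries lay above vector and Pbx3 libraries below it. Pparg, the factor that drives fat cell formation, had 905 and 861 against 804 and 662, short of the threshold (0.27 ± 0.14, limma adjusted p = 0.367).

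Several of the genes furthest higher in Sox9 cells are known from nerve cells or nerve sheaths, but neuronal genes as a list did not lean that way. Of 13 tested neuronal and synaptic genes, 1 rose and 2 fell in exonic reads. By value 6 were higher and 7 lower, with a median log2 fold change of −0.085. Chl1, a neural adhesion protein, had 386 and 265 against 0.942 and 2.05, from 3 reads in Pbx3 cells, a ratio of 225 (95% counting interval 76.5 to 1095, limma adjusted p = 0.0161). Cdh19, a cadherin of nerve sheath cells, had 200 and 136 against 0.942 and 2.05, a ratio of 116 (39.2 to 566, limma adjusted p = 0.0357). Stmn2, a regulator of microtubules in growing axons, had 228 and 175 against 2.83 and 3.08, a ratio of 69.1 (31.4 to 190, limma adjusted p = 0.0152). Gas7, which shapes neurites, and Mal, a myelin protein, had 0 reads in Pbx3 cells and were at least 89.1-fold and at least 71.0-fold higher (limma adjusted p = 0.0394 and 0.0401). All 5 were at or near 0 in Tead4 and vector cells, with at most 7 reads in a group, while of 6 neural markers Rbfox3, Snap25 and Sox10 were listed at 0 in both groups. The other neural markers were above 0, and the summed level of the list was 114 and 74.9 in Sox9 cells against 24.5 and 45.2 in Pbx3 cells. The part of other cell types in these results was not tested, and a listed 0 need not mean absence, since genes in general use such as Eno1 are also at 0. With 1 library left out the adjusted p ran from 0.0425 to 0.314 for Chl1 and from 0.0439 to 0.251 for Stmn2, each still called in 1 of 4 fits. It ran from 0.0596 to 0.357 for Cdh19, from 0.0665 to 0.151 for Gas7 and from 0.0676 to 0.164 for Mal, which were called in none. Unc5c, a netrin receptor, rose by 2.45 ± 0.28, and Gpr126, an adhesion receptor of nerve sheath and cartilage, by 2.56 ± 0.17 (limma adjusted p = 0.0125 and 0.000734).

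C1qtnf3, a secreted protein known from cartilage, had 1134 and 508 in Sox9 cells against 4.71 and 14.4 in Pbx3 cells and 1.75 and 0 in vector cells, a log2 fold change of 6.34 ± 0.84 (limma adjusted p = 0.0211, and 0.0410 to 0.294 with 1 library left out). Faah, an enzyme that breaks down fatty acid amides, had 139 and 140 against 4.71 and 4.11, a ratio of 31.6 (95% counting interval 16.3 to 70.2, limma adjusted p = 0.0402). Edil3, an integrin ligand in the matrix, rose by 3.78 ± 0.46, Wscd2 by 3.94 ± 0.62, the lactate transporter Slc16a3 by 2.87 ± 0.42, the small heat shock protein Cryab by 2.80 ± 0.39 and the adaptor Apba1 by 2.62 ± 0.33, with limma adjusted p from 0.0152 to 0.0367. Ptges, a prostaglandin E synthase and the called member of 15 chemokine and inflammatory genes, rose by 1.20 ± 0.15 (limma adjusted p = 0.0168).

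Genes lower in Sox9 cells included adhesion proteins, signalling genes and transcription factors. Cxadr, a cell adhesion protein and virus receptor, had 1.28 and 10.9 normalised counts in Sox9 cells, against 252 and 312 in Pbx3 cells and 163 and 94.5 in vector cells. It fell by 5.75 on the log2 scale (SE 0.69, limma adjusted p = 0.0152), with −6.95 to −4.56 over the fits that left out 1 library and an adjusted p of 0.0108 to 0.0632. Cap2, which acts on actin, had 1.28 and 4.68 against 111 and 147, from 4 reads in Sox9 cells, so it was 45.6 times as high in Pbx3 cells (95% counting interval 17.6 to 169, limma adjusted p = 0.0125, and 0.0343 to 0.0911 with 1 library left out). Cap2 had 41.1 and 52.0 in vector cells, between the groups. Flrt2, an adhesion protein that guides migrating cells, had 14.1 and 10.9 in Sox9 cells, against 413 and 321 in Pbx3 cells and 32.3 and 11.8 in vector cells. It fell by 4.77 on the log2 scale (SE 0.46, limma adjusted p = 0.00725, and 0.0291 to 0.0813 with 1 library left out), and Pbx3 cells were the group that stood apart from vector cells. Ptprk, a receptor phosphatase at cell contacts, had 1251 and 1234 against 3596 and 3005 and fell by 1.40 on the log2 scale (SE 0.13, limma adjusted p = 0.00645, and up to 0.0853 with 1 library left out).

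Among transcription factors, Mecom, a zinc finger factor of stem cells, had 58.9 and 104 in Sox9 cells, against 529 and 546 in Pbx3 cells and 335 and 311 in vector cells. It fell by 2.76 on the log2 scale (SE 0.27, limma adjusted p = 0.00731, and 0.0136 to 0.0384 with 1 library left out). Eya2, a coactivator of homeodomain proteins, had 17.9 and 18.7 against 113 and 180, with 200 and 135 in vector cells, and fell by 2.89 on the log2 scale (SE 0.42, limma adjusted p = 0.0278, and 0.0663 to 0.230 with 1 library left out). Its relative Eya1 was among the genes called higher. Zfp503 fell by 1.47 on the log2 scale (SE 0.21, limma adjusted p = 0.0286). Fhl1, a LIM protein of muscle and fibroblasts, had 687 and 705 in Sox9 cells, against 3505 and 2839 in Pbx3 cells and 2527 and 2600 in vector cells, and fell by 2.18 on the log2 scale (SE 0.14, limma adjusted p = 0.000612, and 0.00115 to 0.0287 with 1 library left out). The transporters Slc38a1, for glutamine, and Slc35f2 fell by 3.76 (SE 0.34) and 2.79 (SE 0.43) on the log2 scale, with limma adjusted p of 0.00467 and 0.0354. Apol9a and Apol9b fell by 2.01 (SE 0.32) and 2.26 (SE 0.35) on the log2 scale (limma adjusted p = 0.0367 and 0.0350). They are near-identical neighbours whose reads the counting could split between them, so the 2 values are not separate evidence.

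Signalling genes among the lower calls came from several pathways. Hbegf, a ligand of the EGF receptor, had 116 and 140 in Sox9 cells, against 773 and 475 in Pbx3 cells and 423 and 472 in vector cells, and fell by 2.24 on the log2 scale (SE 0.25, limma adjusted p = 0.0125, and 0.00474 to 0.151 with 1 library left out). It was the called member of 18 FGF and EGF pathway genes, of which 6 had an unadjusted p under 0.05. Tgfbr2, the type II receptor of TGF-beta, had 617 and 632 against 1410 and 1680, with 1107 and 1036 in vector cells, and fell by 1.30 on the log2 scale (SE 0.14, limma adjusted p = 0.0104, and 0.0258 to 0.134 with 1 library left out). Of 25 TGF-beta and BMP genes it was the one that was called, while 19 of the 25 were higher in value. With the term for library order limma called 5 of the 25 higher and 1 lower. In intronic reads 1 of 20 of these genes rose and 1 fell. Wnt5a, a non-canonical Wnt ligand, was the called member of 15 Wnt pathway genes, with 171 and 120 against 357 and 302 (fall of 1.19 on the log2 scale, SE 0.20, limma adjusted p = 0.0426, and 0.0637 to 0.173 with 1 library left out). The other Wnt genes were mostly higher in value, 11 of 15 in all, among them the antagonist Frzb at 275 and 115 against 25.4 and 84.3 (1.92 ± 0.84, limma adjusted p = 0.301). With the term for library order limma called 8 of the 15 Wnt genes higher and 2 lower, in a fit that called 1579 of all 9898 tested genes. In intronic reads 2 of 9 Wnt genes rose and 0 fell, against 3.15% of all tested genes called higher. Sema3a and Sema3e, secreted guides of axons and vessels, fell by 1.16 (SE 0.14) and 1.25 (SE 0.14) on the log2 scale (limma adjusted p = 0.0167 and 0.0126). Ghr, the growth hormone receptor, fell by 1.02 on the log2 scale (SE 0.11, limma adjusted p = 0.0125).

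Ankrd1, a target of TEAD and YAP, had 2183 and 2643 in Sox9 cells, against 5632 and 5715 in Pbx3 cells and 4367 and 4444 in vector cells, and fell by 1.24 on the log2 scale (SE 0.19, limma adjusted p = 0.0330, and 0.0671 to 0.259 with 1 library left out). It was the called member of 27 TEAD-YAP targets, whose median was −0.02, against −0.0072 over all tested genes. Ctgf, another target, had 1145 and 2029 against 10700 and 4396, without overlap, and did not pass in exonic reads (−2.17 ± 0.50, limma adjusted p = 0.0955). Plk2, a kinase on the list of p53 targets, had 893 and 1095 in Sox9 cells, against 3203 and 2869 in Pbx3 cells and 1829 and 1908 in vector cells, and fell by 1.62 on the log2 scale (SE 0.14, limma adjusted p = 0.00445, and 0.0107 to 0.0438 with 1 library left out). The other 19 tested members of that list were not called.

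Partners and classical neighbours of PBX proteins gave 0 exonic calls here and 1 with the term for library order. Of 10 tested genes of the PBX, MEIS and PREP families and their cofactors, limma called 0, 4 had an unadjusted p under 0.05, and the largest value was Pbxip1, a PBX-binding protein, at 0.86 ± 0.23 (limma adjusted p = 0.124). Of 11 tested Hox genes limma called 0, 1 had an unadjusted p under 0.05, and values ran from −0.23 to 0.62. Limma also called 0 of 45 cell cycle genes, 0 of 21 cholesterol synthesis genes, 0 of 21 contractile genes and 0 of 28 stress response genes, with 3, 0, 6 and 3 at an unadjusted p under 0.05. With the term for library order the calls were 1, 0, 8 and 4, in a fit that called 1579 of all 9898 tested genes. Cholesterol synthesis genes instead differed within the groups, between library 1 and library 2, by a median of 1.07 log2 units in Sox9 cells and 1.31 in Pbx3 cells.

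**Figure D3:**
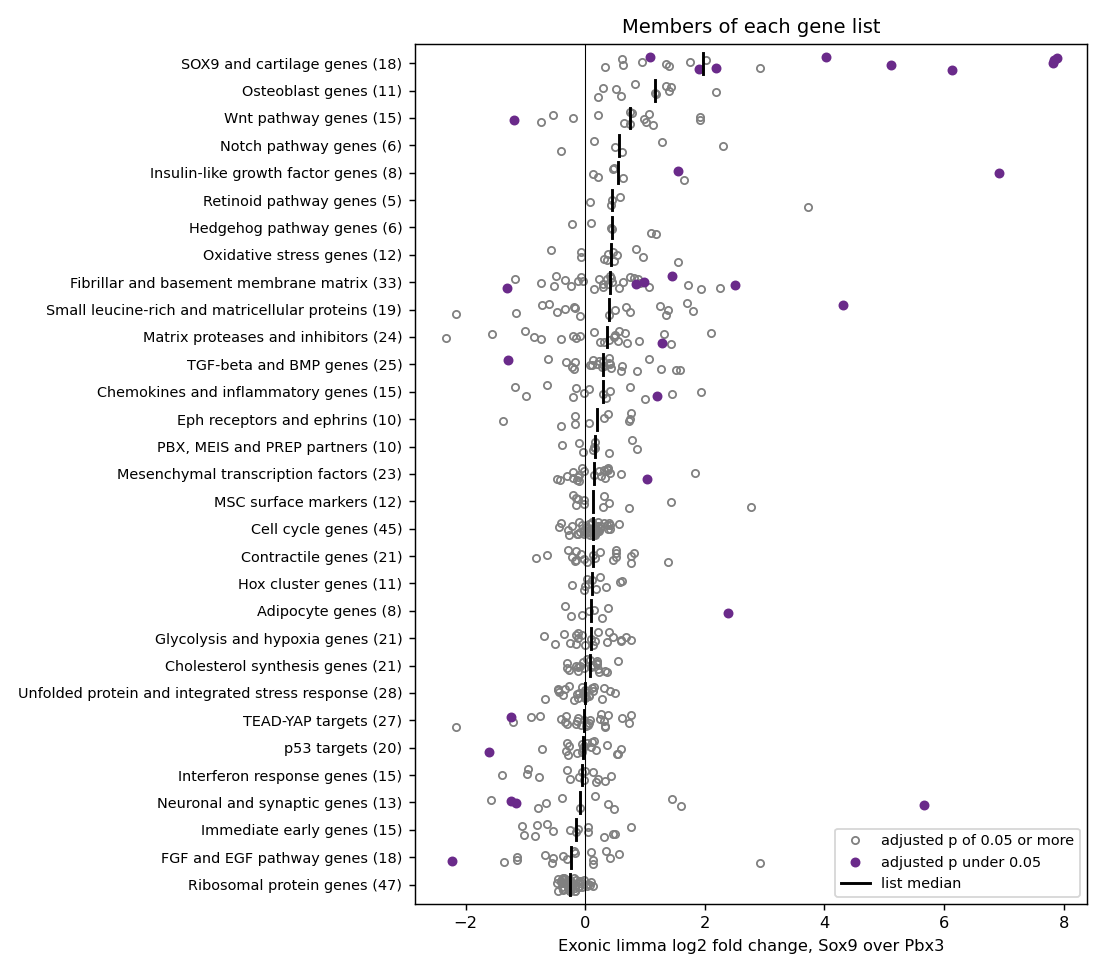
Each row is a gene list with at least 5 tested members (number in brackets), each dot a member at its exonic limma log2 fold change of Sox9 over Pbx3 cells, and the bar the list median. Filled dots have a limma adjusted p under 0.05. The SOX9 and cartilage list lies furthest right with 9 filled dots and a median of 1.96, and the ribosomal protein list furthest left with none and a median of −0.25.

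Set beside vector cells, the Sox9 libraries lay outside the range of the vector libraries for most called genes. Both comparisons with vector share the vector libraries, so only positions are given. Calling on the gap between Sox9 and Pbx3 cells itself favours genes that lie off vector in at least 1 group. The matching shares over all tested genes were not worked out, so the counts only describe where called genes lay. Of the 65 higher genes, the Sox9 libraries lay above the vector libraries in 62. Pbx3 libraries overlapped vector in 28 of these 62, lay below it in 25 and above it in 9. Of the 41 lower genes, Sox9 libraries lay below vector in 39. For 29 of these 39 the Pbx3 libraries lay above vector, for 9 they overlapped it and for 1 they lay below. The log2 ratio to vector was the larger in Sox9 cells for 55 of 65 higher and 37 of 41 lower genes. Fabp4, Col2a1 and Ptges were on opposite sides of vector in the 2 groups, as were Fhl1, Fbln2, Tgfbr2, Plk2 and Mecom among the lower genes.

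Intronic reads gave more calls. Of 8574 genes tested, limma called 399 (4.65%), 270 higher (3.15%) and 129 lower (1.5%) in Sox9 cells, and 1979 had an unadjusted p under 0.05. The size rule held for 280 genes (3.27%), of which 190 were also called. Sox9 and Pbx3 libraries were without overlap for 51.9% of the genes, 25.6% higher and 26.3% lower. Calls numbered 86 without Sox9 library 1, 107 without Sox9 library 2, 190 without Pbx3 library 1 and 479 without Pbx3 library 2. All 399 kept their sign in those of these 4 fits in which they reached the minimum, which is fixed in advance where libraries do not overlap. Most did not keep their call in each of the 4 fits. Of the 65 genes called higher in exonic reads, 51 were tested in intronic reads, all 51 with the same sign and 44 called. Of the 41 called lower, 28 were tested, all 28 with the same sign and 20 called. Over 8000 genes measured in both, the exonic and intronic log2 ratios correlated at r = 0.85 and rho = 0.77. Exonic and intronic reads come from the same libraries, so this is no independent repeat.

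Among the 5 highest intronic genes, Cdh19 had 251 and 238 normalised intronic counts in Sox9 cells against 1.78 and 1.103 in Pbx3 cells (6.67 ± 0.63, limma adjusted p = 0.00129), and Hapln1 had 572 and 480 against 9.77 and 4.41 (6.10 ± 0.52, limma adjusted p = 0.00105). Col2a1 at 5.67 ± 0.39 and Col11a1 at 5.10 ± 0.44 also kept their calls whichever library was left out. Igfbp5 at 5.93 ± 1.16 did not (limma adjusted p = 0.0266, and 0.0271 to 0.135 in the 3 fits with 1 library left out in which it reached the minimum). Among the 5 lowest, Flrt2 had 13.4 and 11.7 against 197 and 144 (−3.65 ± 0.36, limma adjusted p = 0.00142) and Hbegf 26.8 and 42.9 against 307 and 194 (−2.81 ± 0.29, limma adjusted p = 0.00145). Nkain2 had 70.4 and 42.9 against 450 and 240 (−2.56 ± 0.33, limma adjusted p = 0.00435). Ctgf at −2.48 ± 0.46, which missed the threshold in exonic reads, passed here (limma adjusted p = 0.0217) and lost the call in 2 of the 4 fits with 1 library left out, at up to 0.148. Among 25 TEAD-YAP targets 4 fell and 0 rose in intronic reads, with Ctgf, Edn1 at −2.24 ± 0.42, Ankrd1 at −2.03 ± 0.25 and Axl at −1.03 ± 0.14, while the median of the list was 0.12. Klf6, an immediate early gene, fell by 1.79 on the log2 scale (SE 0.18, limma adjusted p = 0.00142), and Efnb2, an ephrin ligand, by 1.19 (SE 0.13, limma adjusted p = 0.00244).

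Sp7 was called in intronic reads, with 315 and 191 in Sox9 cells, against 53.3 and 87.1 in Pbx3 cells and 222 and 126 in vector cells (1.83 ± 0.40, limma adjusted p = 0.0421, and 0.0311 to 0.239 with 1 library left out). Of 14 tested cartilage genes 9 rose in intronic reads and 0 fell, with a median of 1.76. Over all 8574 genes tested in intronic reads, 3.15% were called higher and 1.5% lower. Of 12 osteoblast genes 2 rose. Of 15 small leucine-rich and matricellular genes 1 fell, which was Ctgf, already counted among the TEAD-YAP targets. Of 16 neuronal genes 3 rose and 1 fell. Sema3d, a semaphorin, was among the genes that rose, at 2.44 ± 0.41 (limma adjusted p = 0.0161), while Sema3a fell, with 1460 and 1567 in Sox9 cells against 3033 and 3013 in Pbx3 cells (limma adjusted p = 0.00769).

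**Figure D4:**
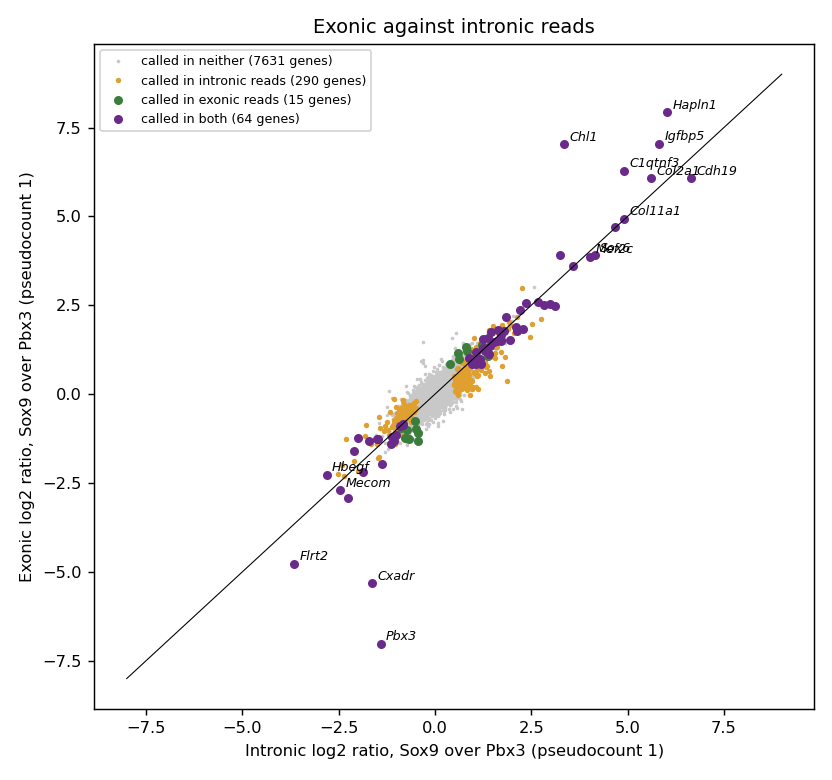
Each dot is 1 of 8000 genes measured in both kinds of reads, at its intronic (horizontal) and exonic (vertical) log2 ratio of Sox9 over Pbx3 cells with a pseudocount of 1, and the line marks equal ratios. Most called genes lie near the line, and Pbx3, Cxadr and Chl1 lie furthest from it.

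The gap between exonic and intronic reads was widest for Pbx3, which had an exonic log2 ratio of −7.03 against an intronic one of −1.41. On the side of lower exonic ratios Cxadr came next, at −5.32 in exonic and −1.64 in intronic reads. Its intronic counts were 134 and 131 in Sox9 cells against 373 and 459 in Pbx3 cells, so intronic reads remained in Sox9 cells where 8 exonic reads were left. Chl1 had a gap of about the same size in the opposite direction, at 7.03 in exonic and 3.34 in intronic reads, with 36.4 and 35.3 intronic counts in Pbx3 cells beside 3 exonic reads. Hapln1 (7.93 and 6.03) and Adamts3 (1.47 and −0.31) had the next widest gaps on that side. The gaps were not tested, and reads of overlapping genes could enter introns.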

How the data were processed

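Total RNA of the 6 samples was sequenced after ribosomal RNA depletion, in strand-specific single-end libraries, per the labels' protocols. Per the submitters' processing notes, the authors used Bowtie2, the mm9 genome and DESeq 1.10.1. The annotation, the use of strand in counting and the treatment of shared reads are not stated in any source used here. The 6 tables used hold a signal for each group that the authors deposited as the mean of counts divided by size factors, and every value column could be mapped to a group. Some genes in general use, such as Eno1 and Rpl26, are listed at 0.

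Each group has 1 labelled sample, yet every deposited mean was the mean of 2 libraries of whole reads, which were recovered uniquely for 100% of genes at a tolerance of 1e-12; the vector reads recovered from the 3 tables differed for 0 genes. Library 1 has the larger size factor, and numbers pair nothing between groups. Tables were put on the scale of the Pbx3 table by the median ratio of vector means over genes with both of 200 or more (1.198 exonic, 1.105 intronic for the Sox9 table).

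Log2 of normalised counts plus 1 was tested in R 4.3.3 with the trended fit of limma 3.58.1, over the 8 libraries of the 4 transfected groups, contrast Sox9 minus Pbx3, with Benjamini-Hochberg adjustment over all genes with a mean of 50 or more and a threshold of 0.05. Values given with ± are log2 fold changes of this fit and their standard errors, from 2 libraries per group; "rose" and "fell" are kept for called genes. A test for raw counts was not run, because the tables give normalised means. Recovery and test were tested on simulated data. Counting intervals are exact at 95% and, like floors of 3 reads per group, cover counting error only. Named genes are both factors, the 12 highest and 12 lowest called in exonic reads, the 5 highest and 5 lowest in intronic reads, and of each of 38 lists the 4 members furthest apart and every called member; others are said to be named after their values were seen. Some genes within the rule are not reported here. Members and lists were chosen with earlier results of these data known.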

Additional observations from a re-analysis of the deposited data

How the results depend on the processing

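The labels give no replicate numbers, so no pairing of libraries comes from the design. A term for library order, with the order taken from how the libraries correlate, is a hint from the data. It raised the exonic calls to 1579 and the intronic calls to 1843, with all 106 and all 399 genes among them. With only Sox9 and Pbx3 libraries in the fit, 67 exonic genes (54 of them among the 106) and 217 intronic genes (205 of the 399) were called. A minimum mean of 200 gave 42 exonic calls, and 193 exonic and 143 intronic genes 2-fold apart. A minimum of 10 gave 162 exonic calls, and 704 exonic and 599 intronic genes 2-fold apart. Leaving out 1 library gave 11 to 70 exonic and 86 to 479 intronic calls, and 313 to 752 exonic and 293 to 530 intronic genes 2-fold apart. Without Sox9 library 1, 4 exonic genes were called higher and 7 lower, and the intronic split without Pbx3 library 2 was 260 higher and 219 lower. Scaling from the Sox9 and Pbx3 means instead of vector gave 74 higher and 37 lower exonic calls, and a pseudocount of 10 gave 124 calls. Of 45 named genes called in exonic reads, all 45 kept their calls under the order term, the rescaling, the pseudocount of 10 and the minimum of 10, 33 with only Sox9 and Pbx3 libraries in the fit, and 15 of 30 measured at the minimum of 200. Of 110 named genes not called, 78 were called under the order term. The cause of these changes was not tested. A higher minimum tests fewer genes, but at the minimum of 200 there were 68 of the 106 exonic genes still measured and 42 called. In intronic reads that minimum gave 413 calls, with 304 of the 399 among them. With 1 library left out, signs turned for 10 named genes in exonic reads and 11 in intronic reads, none of them called. The exonic ranges were −0.14 to 0.83 for Hoxc6, −0.013 to 0.51 for Hoxc10, −0.18 to 0.93 for Lpl, −0.53 to 3.18 for Mmp13, −0.023 to 1.27 for Igfbp4, −0.066 to 1.15 for Hsd17b7, −1.31 to 1.14 for Nsdhl, −1.18 to 0.56 for Insig1, −0.88 to 0.25 for Lss and −1.27 to 0.25 for Hk2. Depth limits genes such as Lect1, Gas7 and Mal, whose folds are lower bounds.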

Other observations

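Some genes higher in Sox9 than in Pbx3 cells were also high in Tead4 cells, as values with no test, and those named here were chosen after their values were seen. Igf2bp2 had 361 and 370 exonic normalised counts in Sox9 cells, 106 and 144 in Pbx3 cells, 559 and 416 in Tead4 cells and 80.4 and 52.0 in vector cells. Rgs17, a regulator of G protein signalling, had 482 and 423 in Sox9 cells, 133 and 128 in Pbx3 cells, 312 and 253 in Tead4 cells and 46.3 and 63.8 in vector cells. Gpr126 had 304 and 304 in Tead4 cells and 78.7 and 66.1 in vector cells, beside 476 and 446 in Sox9 cells and 78.2 and 76.0 in Pbx3 cells. Col2a1, Hapln1, Acan and Sox6 showed no such level in Tead4 cells, where Hapln1 had 0 reads and Acan had 1. Col11a1 did lie above vector in Tead4 cells, at 440 and 627 against 232 and 126 in vector cells. It had 146 and 463 in Pbx3 cells and 11653 and 7052 in Sox9 cells. Ngfr, a nerve growth factor receptor also used as a stromal marker, had 62.7 and 35.9 in Sox9 cells and 0 in both Pbx3 and both vector libraries, with a mean too low to be tested.

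Ribosomal protein genes were lower in value in Sox9 cells for 42 of 47 members in exonic reads, with a median log2 fold change of −0.25, and for 44 of 45 in intronic reads, with a median of −0.53. Limma called 0 of 47 in exonic reads, where 12 had an unadjusted p under 0.05, and 5 of 45, all lower, in intronic reads, among them Rps25 at −0.92 ± 0.17 (limma adjusted p = 0.0225). With the term for library order it called 13 of 47 in exonic and 31 of 45 in intronic reads, all lower. Over all tested genes that fit called 1579 of 9898 in exonic and 1843 of 8574 in intronic reads. Granzyme genes did not reach the minimum in either group. Their summed exonic counts were 89.6 and 49.9 in Sox9 cells, 11.3 and 8.22 in Pbx3 cells and 465 and 175 in vector cells.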
